A study of Mus musculus with 6 samples.

Results

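The genes described here are 8 that write methyl marks on tRNA, some of them at sites where Alkbh1 is known to act. They are Nsun2, Nsun3, Trdmt1, Trmt6, Trmt61a, Trmt61b, Trmt10c and Ftsj1. The rule that chose them names symbols linked to Alkbh1 and uses no measured value, although earlier results of these data were known when it was made, and all 8 were found among the 21310 Ensembl genes of the mRNA table. The mRNA was measured in mouse pachytene spermatocytes, germ cells in the long middle stage of meiotic prophase, from testes of Alkbh1-/- mice and of wild-type (WT) mice. Alkbh1-/- mice carry a targeted deletion of exon 6 in every cell, on a line whose heterozygotes were backcrossed to C57/BL6. Each genotype had 1 mRNA library, prepared with oligo(dT) from RNA longer than 200 nt (1.6 µg for Alkbh1-/-, 1 µg for WT), amplified for 15 cycles and read as 75-base pairs. The labels do not say how many animals gave each library. The series also has 4 small RNA libraries, which count piRNA clusters and are not used here.

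Alkbh1 is an iron- and 2-oxoglutarate-dependent dioxygenase that acts on methylated bases in tRNA. It removes the methyl group of 1-methyladenosine from cytosolic tRNAs, and it oxidises the 5-methylcytosine at the wobble base of mitochondrial tRNA-Met to 5-formylcytosine, a mark that lets this single tRNA read both methionine codons of mitochondria. In the cytosol it oxidises wobble 5-methylcytosine of a leucine tRNA, and Ftsj1 methylates the ribose of the same nucleotide. Of the members, Nsun2, Nsun3 and the enzyme of Trmt6 and Trmt61a write marks at these sites, and Ftsj1 acts on the same nucleotide. Trdmt1, Trmt61b and Trmt10c methylate other sites, described below, and are not named here as suppliers of Alkbh1.

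With 1 library per genotype there was no replicate error and no test. Levels are in CPM, counts relative to a library total that was adjusted by TMM, a trimmed mean of gene ratios. A ratio is Alkbh1-/- over WT, and its interval is an exact (Clopper-Pearson) 95% interval that covers counting error only. The libraries held 10229260 counts in Alkbh1-/- and 8222671 in WT. No transcript lengths were used, so the levels of different genes are not compared with each other. In a preparation of many cells, fewer cells of a type and less RNA per cell cannot be told apart.

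None of the 7 members with a mean of at least 5 CPM, the floor used for counting, differed by 1.5-fold between the libraries. Across the 11793 genes that passed this floor, 8.09% had a ratio of 1.5 or more and 9.07% were lower by 1.5-fold or more, so 0 of 7 is near what genes at large showed. The 7 ratios lay between 0.922 (Trmt61b) and 1.21 (Trdmt1). Their median log2 ratio was -0.0034, beside -0.019 for all genes over the floor. The remaining member, Ftsj1, was under the floor and had the ratio farthest from 1, at 0.634. The counting interval of the ratio held 1 for each of the 8 members, while it left out 1 for 50.0% of the genes over the floor. That share includes genes with far more reads than most members have, and narrower intervals. Against the median of all genes over the floor, 4 of the 8 members lay above and 4 below.

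**Figure D1:**
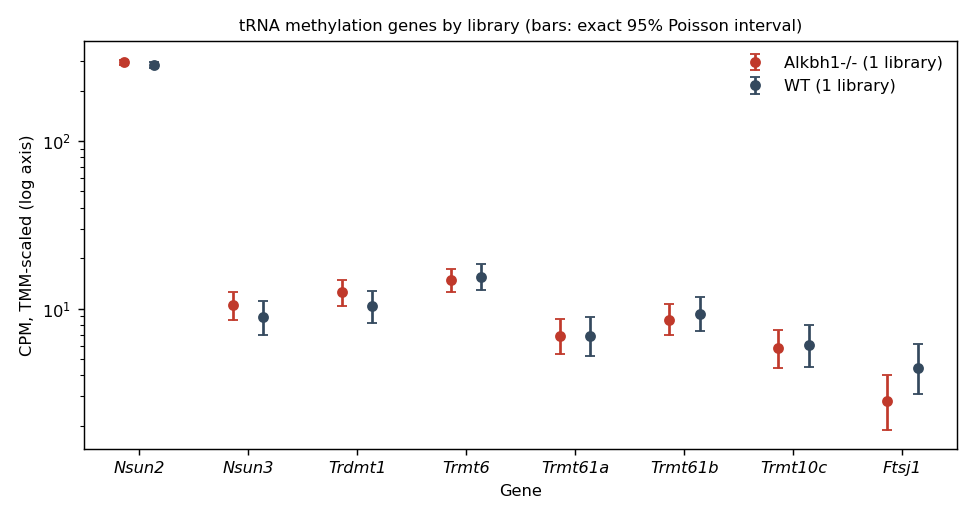
TMM-scaled CPM of the 8 tRNA methylation genes (log axis) in the Alkbh1-/- library and the WT library, with exact 95% Poisson intervals. The paired intervals overlap for every gene, and the widest relative gap is that of Ftsj1, at 2.80 CPM in Alkbh1-/- and 4.43 CPM in WT. CPM is not corrected for length, so heights of different genes are not comparable.

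Among the cytosine methyltransferases, Nsun2 was the member measured best. Nsun2 places 5-methylcytosine on many cytosolic tRNAs, the wobble base of leucine tRNA among them, and is needed for male germ cell differentiation in mice. It had 3043 counts in Alkbh1-/- and 2310 in WT, or 294 CPM (exact Poisson interval 284 to 305) against 284 CPM (272 to 296). The libraries were close, with a ratio of 1.04 (0.982 to 1.09). Of the genes over the floor, 59.1% had a lower ratio.

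Nsun3 makes the wobble 5-methylcytosine of mitochondrial tRNA-Met, the direct substrate that Alkbh1 oxidises. Its counts were 108 in Alkbh1-/- and 72 in WT, giving 10.4 CPM (8.57 to 12.6) and 8.85 CPM (6.92 to 11.1). The ratio was 1.18 (0.868 to 1.61), a value that 77.0% of genes over the floor lay below. Trdmt1, also called Dnmt2, looks like a DNA methyltransferase but methylates a cytosine in the anticodon loop of tRNA-Asp and a few other tRNAs. It had 129 counts in Alkbh1-/- and 84 in WT, which is 12.5 CPM (10.4 to 14.8) against 10.3 CPM (8.24 to 12.8). Its ratio of 1.21 (0.911 to 1.61) was the highest of the 8, and 79.4% of genes over the floor lay below it. For both genes an increase beyond 1.61-fold lies outside the interval, and the interval holds 1.

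The 1-methyladenosine writers had ratios at or just below 1. Trmt6 and Trmt61a are the subunits of the enzyme that makes 1-methyladenosine in the T loop of cytosolic tRNAs, the mark that Alkbh1 removes; Trmt61a carries the catalytic site and Trmt6 helps bind the tRNA. Trmt6 had 153 counts in Alkbh1-/- and 126 in WT, at 14.8 CPM (12.5 to 17.3) and 15.5 CPM (12.9 to 18.4), a ratio of 0.956 (0.750 to 1.22). For Trmt61a the counts were 71 in Alkbh1-/- and 56 in WT, at 6.87 CPM (5.36 to 8.66) and 6.88 CPM (5.20 to 8.94), a ratio of 0.998 (0.693 to 1.44). The subunits moved little relative to each other: Trmt6 had 2.15 reads per read of Trmt61a in Alkbh1-/- and 2.25 in WT.

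In mitochondria the same chemistry is divided between Trmt61b and Trmt10c. Trmt61b makes 1-methyladenosine in the T loop of mitochondrial tRNAs and in mitochondrial ribosomal RNA. It had 89 counts in Alkbh1-/- and 76 in WT, or 8.61 CPM (6.91 to 10.6) and 9.34 CPM (7.36 to 11.7), with a ratio of 0.922 (0.671 to 1.27). Trmt10c methylates a purine between the acceptor and D stems of mitochondrial tRNAs, adenosine in some and guanosine in others, and is also a part of mitochondrial RNase P, which cuts tRNAs out of the long mitochondrial transcripts. Its counts were 60 in Alkbh1-/- and 49 in WT, at 5.80 CPM (4.43 to 7.47) and 6.02 CPM (4.46 to 7.96), and the ratio was 0.964 (0.650 to 1.44). The exact intervals of Trmt61a and Trmt10c reach 1.44 upward and 0.693 and 0.650 downward, so these libraries set only loose bounds on both.

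Ftsj1, which methylates riboses of the anticodon loop of cytosolic tRNAs and is X-linked, gave 29 counts in Alkbh1-/- and 36 in WT. These are 2.80 CPM (1.88 to 4.03) against 4.43 CPM (3.10 to 6.13). The ratio was 0.634 (0.375 to 1.06), that is 1.58-fold lower with an interval that holds 1, and 7.89% of the genes over the floor had a lower ratio. It was the only one of the 8 past 1.5-fold. With a pseudocount of 5 CPM in both libraries the ratio was 0.828.

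**Figure D2:**
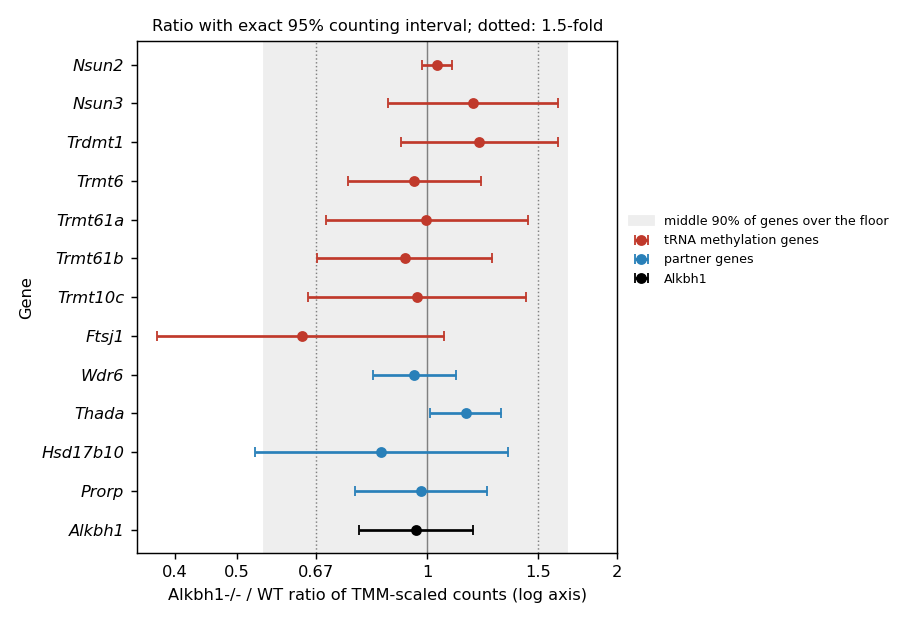
Ratio of TMM-scaled counts, Alkbh1-/- over WT (log axis), with exact 95% counting intervals for the 8 tRNA methylation genes (red), 4 partner genes (blue) and Alkbh1 (black). The grey band is the middle 90% of genes over the floor (0.552 to 1.66) and the dotted lines mark 1.5-fold in either direction. Every member's point lies inside the band and every member's interval holds 1.

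The X chromosome is transcriptionally silenced in pachytene spermatocytes, by meiotic sex chromosome inactivation, so the X-linked genes were set beside Ftsj1 after its value was seen. The floor left 332 X-linked genes, and 38.0% of them were lower in Alkbh1-/- by 1.5-fold or more, while 7.83% were higher by as much, with a median log2 ratio of -0.36. Among autosomal genes over the floor, 8.33% were lower by 1.5-fold or more and the median was -0.017. At the level of Ftsj1, a mean of 1 to 5 CPM, the share lower by 1.5-fold or more was 30.5% of 262 X-linked genes and 16.4% of 2870 autosomal genes, with medians of -0.11 and 0.16. The fixed pathway lists hold 4 X-linked genes, Ftsj1 included, and all 4 were under the floor with ratios below 1. Each of the 4 intervals held 1. Ratios were also below 1 for 228 of the 332 X-linked genes over the floor. The others of the 4 were Hsd17b10 (0.847, interval 0.535 to 1.35), Trmt2b (0.683, 0.415 to 1.12) and Lage3 (0.363, 0.113 to 1.02). Trmt2b is a methyltransferase for 5-methyluridine. Lage3, a part of the complex that makes threonylcarbamoyladenosine, had 6 counts in Alkbh1-/- and 13 in WT. Among the cell type markers described below, X-linked Gata1 (Sertoli) had a ratio of 0.445 and X-linked Akap4 (spermatid) 1.33. What part silencing of the X chromosome or the mix of cells has in these ratios was not tested.

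**Figure D3:**
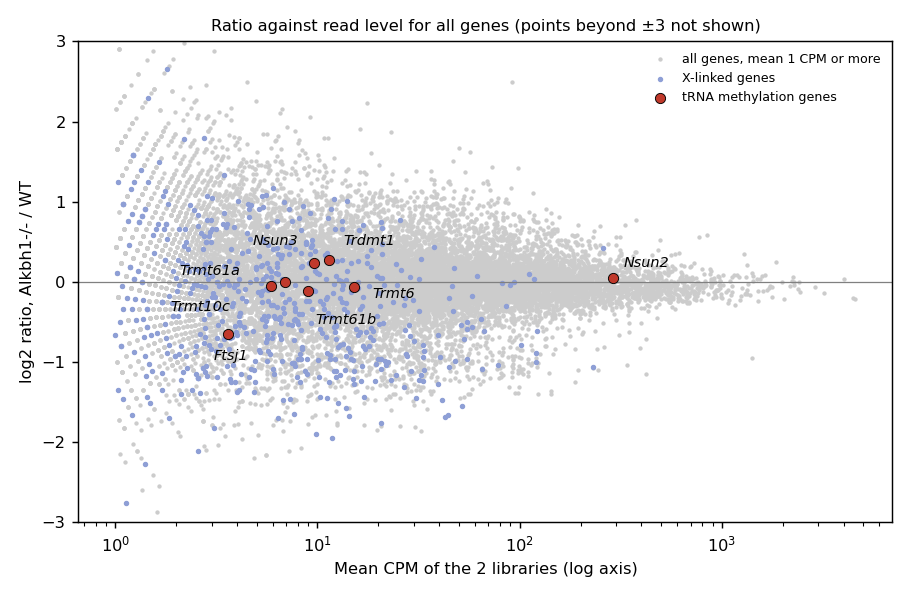
The log2 ratio, Alkbh1-/- over WT, against the mean CPM of the libraries (log axis) for genes with a mean of 1 CPM or more and reads in both libraries (grey), with X-linked genes in blue and the 8 tRNA methylation genes in red. Ftsj1 lies at -0.66 and the other 7 between -0.12 and 0.27. The spread of the grey points widens toward low CPM, where all members but Nsun2 lie.

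Several members work with named partner proteins, and these differed as little. Ftsj1 acts with Wdr6 or with Thada, depending on which nucleotide of the anticodon loop is methylated, as known from the human and yeast proteins. Wdr6 had 37.3 CPM in Alkbh1-/- and 39.1 CPM in WT (ratio 0.955, interval 0.821 to 1.11). Thada had 56.2 CPM in Alkbh1-/- and 48.8 CPM in WT (1.15, 1.01 to 1.31). Trmt10c works with the dehydrogenase Hsd17b10 (4.06 CPM in Alkbh1-/- and 4.79 CPM in WT) and, within RNase P, with the nuclease Prorp (15.4 CPM in Alkbh1-/- and 15.7 CPM in WT). Alkbh1 itself had 209 counts in Alkbh1-/- and 171 in WT, a ratio of 0.962 (0.782 to 1.18). Reads of the other exons enter this count, so it cannot check the deletion.

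A ratio between genes of the same library needs no scaling, and 8 such pairs were compared. The reads of Nsun3 per read of Alkbh1 were 0.517 in Alkbh1-/- and 0.421 in WT, 1.23 times as many with an exact conditional 95% interval of 0.843 to 1.79. In Alkbh1-/- the Alkbh1 count can hold no reads of the deleted exon, so this pair is not the same measure in both libraries. For Trmt6 per Trmt61a the factor was 0.958 (0.613 to 1.49), for Trmt61b per Trmt61a 0.924 (0.564 to 1.51) and for Trmt10c per Prorp 0.986 (0.618 to 1.58). Trmt10c per Hsd17b10 gave 1.14 (0.613 to 2.11), Nsun2 per Trdmt1 0.858 (0.640 to 1.14) and Ftsj1 per Wdr6 0.664 (0.383 to 1.14). In 1 pair, Ftsj1 per Thada, the interval left out 1 (0.550, 0.320 to 0.941), and it held 1 once the level was adjusted for 8 pairs (0.260 to 1.15).

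Promoter sequence is given for 3 members: Nsun2 as the one with the narrowest interval, Trmt61a as the catalytic subunit for the mark Alkbh1 removes, and Ftsj1 as the one farthest from a ratio of 1. The windows are the 250 bases before the RefSeq start on GRCm38.p6, read 5′ to 3′ on the gene's strand, with capitals marking a CRE (TGACGTCA) or a CCAAT box on either strand. They lie at chr13:69611766-69612015 (Nsun2, plus strand), chr12:111677855-111678104 (Trmt61a, plus strand) and chrX:8252407-8252656 (Ftsj1, minus strand).
Nsun2: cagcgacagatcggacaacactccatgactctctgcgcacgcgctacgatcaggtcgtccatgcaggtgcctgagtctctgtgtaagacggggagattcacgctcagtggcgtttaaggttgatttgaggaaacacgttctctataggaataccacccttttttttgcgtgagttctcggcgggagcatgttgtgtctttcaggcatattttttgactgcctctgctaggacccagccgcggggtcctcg
Trmt61a: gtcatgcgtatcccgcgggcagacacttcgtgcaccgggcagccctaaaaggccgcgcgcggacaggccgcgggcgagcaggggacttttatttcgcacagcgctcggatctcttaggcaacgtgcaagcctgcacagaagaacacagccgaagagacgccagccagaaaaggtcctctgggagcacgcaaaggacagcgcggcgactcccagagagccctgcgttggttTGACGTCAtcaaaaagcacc
Ftsj1: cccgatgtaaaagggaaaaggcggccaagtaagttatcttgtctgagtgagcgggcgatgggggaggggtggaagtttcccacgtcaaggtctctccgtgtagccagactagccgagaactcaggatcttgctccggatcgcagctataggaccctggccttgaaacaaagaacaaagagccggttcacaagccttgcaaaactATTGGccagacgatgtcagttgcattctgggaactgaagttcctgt
Of all 32851 RefSeq promoter windows of this length, 1.55% held the CRE and 33.8% a CCAAT box. The window of Nsun2 held neither, that of Trmt61a held 1 CRE and that of Ftsj1 held 1 CCAAT box, written ATTGG on the printed strand. CpG dinucleotides numbered 17 in the window of Nsun2, 24 in that of Trmt61a and 11 in that of Ftsj1, against a median of 6 over all windows. The windows of Trmt10c and Nsun3 each held 1 ETS motif (CCGGAAG, both strands), present in 6.91% of all windows. A window of Trmt61b held 1 CCAAT box, and it and that of Trmt10c each held 1 SP motif (GGGCGG, 32.7% of all windows). Every member window was searched for NRF1, CRE, ETS, CCAAT, SP, YY1, MYB and TATA motifs, and the matches given are all that were found. These letter matches describe the windows and are not binding sites.

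The rest of the pathway was described through 8 lists of 107 genes, of which 101 were matched and 84 were over the floor. Past 1.5-fold, 6 of the 84 were higher in Alkbh1-/- and 1 was lower, with a median log2 ratio of 0.031, against the 8.09% and 9.07% of all genes. In the family of Nsun2 and Nsun3, 2 of the 5 other members were past 1.5-fold on the higher side in Alkbh1-/- and 0 on the lower side. Nsun4, which methylates mitochondrial ribosomal RNA, had 105 CPM in Alkbh1-/- and 61.1 CPM in WT (ratio 1.71, interval 1.54 to 1.91). Nsun6, which methylates the acceptor end of a few cytosolic tRNAs, had 14.1 CPM in Alkbh1-/- and 8.97 CPM in WT (1.57, 1.18 to 2.11). Nsun7 (1.13), Nop2 (0.994) and Nsun5 (0.959) completed the family, so its median log2 ratio was 0.18.

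Of 17 other tRNA methylation genes over the floor, 1 was higher in Alkbh1-/- by 1.5-fold or more and 0 were lower (median log2 ratio 0.093). It was Trmt13, a ribose methyltransferase, with 8.80 CPM in Alkbh1-/- and 5.65 CPM in WT (ratio 1.56, interval 1.08 to 2.27). Trmt10a, the cytosolic relative of Trmt10c, had a ratio of 0.845 (0.781 to 0.915) and Trmt1, which makes dimethylguanosine, 1.08 (0.993 to 1.17). Among 27 genes of other tRNA modifications, 3 were at least 1.5-fold higher and 1 lower (median 0.031). Qtrt1 and Qtrt2, the subunits of the enzyme that inserts queuine at the wobble base, had ratios of 2.17 (1.48 to 3.25) and 1.51 (1.05 to 2.19). Adat2, the catalytic subunit of the wobble adenosine deaminase, had 1.99 (1.38 to 2.91), and the pseudouridine synthase Pus7 was lower, at 6.87 CPM in Alkbh1-/- and 11.9 CPM in WT (0.576, 0.418 to 0.790). The genes of this list with most reads, Elp5 (0.866) and Nat10 (0.977), stayed within 1.5-fold. Just under the floor, at a mean of 4.93 CPM, Tyw3 had the highest ratio of the list, 2.65 (1.63 to 4.48). Also under the floor, Ctu1 (0.644, 0.236 to 1.71) and Lage3 (0.363) were lower by 1.5-fold or more.

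In 5 of the lists no gene over the floor reached 1.5-fold in either direction. Besides the 3 partners over the floor, these were 9 AlkB and TET oxidases (median log2 ratio -0.11, with Fto at a ratio of 0.937 and Alkbh5 at 0.926) and 10 genes of mitochondrial tRNA maturation (median -0.040, with the tRNA end nuclease Elac2 at 1.06 and the polymerase Polrmt at 0.999). The 7 mitochondrial translation factors, which use the tRNA-Met that Nsun3 and Alkbh1 modify or other mitochondrial tRNAs, had the highest median of these, 0.25, with the initiation factor Mtif2 at a ratio of 1.31 (1.14 to 1.52) and the elongation factor Gfm1 at 0.982. The 6 genes whose proteins bind RNA carrying methylated bases had a median of -0.019, with Ybx1 at 0.990 (0.959 to 1.02) and Ythdc1 at 1.16 (1.05 to 1.27).

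**Figure D4:**
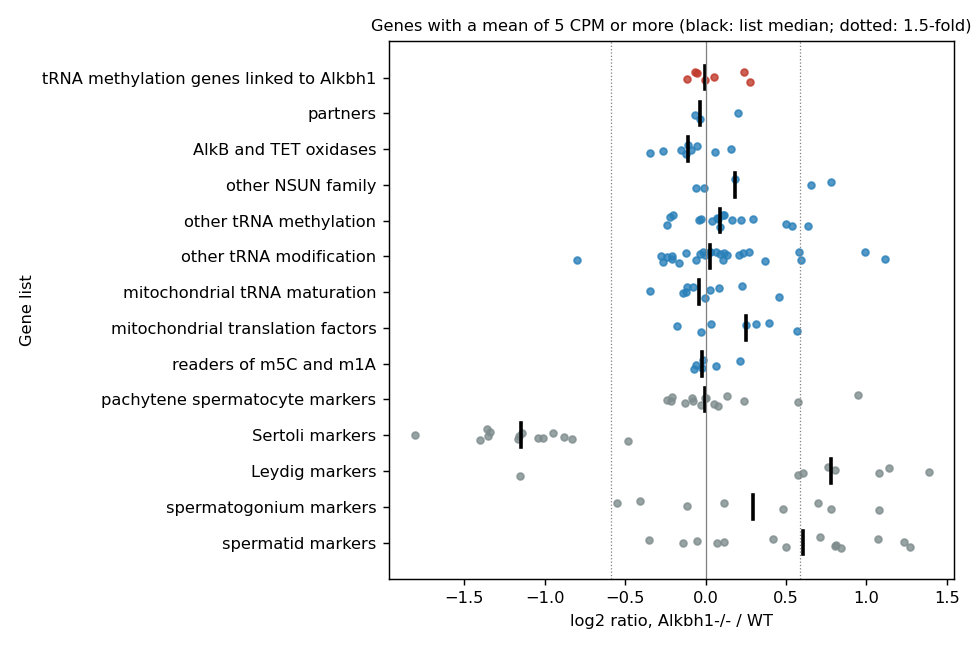
The log2 ratio, Alkbh1-/- over WT, of each gene over the floor in the tRNA methylation genes linked to Alkbh1 (red), the other pathway lists (blue) and the cell type markers (grey), with list medians as black bars and 1.5-fold as dotted lines. The red points lie between -0.12 and 0.27, and the Sertoli markers have the lowest median, -1.15. Myoid and blood markers, with 2 and 1 genes over the floor, are not drawn.

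Markers of other testis cells differed between the libraries more than the members did. Of 15 pachytene spermatocyte markers over the floor 1 was at least 1.5-fold higher (Spag6, 1.93) and 0 lower, and the next farthest was Tex101 (1.49). Whether reads of Spag6 were shared with a near copy was not tested. Their summed level was 14414 CPM in Alkbh1-/- and 14972 CPM in WT. Of 14 Sertoli markers over the floor, 13 were at least 1.5-fold lower and 0 higher, with Sox9 at 0.286 and Aard at 0.378, and the sum of the 15 matched was 1863 CPM in Alkbh1-/- and 3835 CPM in WT. Of 8 Leydig markers, 6 were at least 1.5-fold higher and 1 lower, from Hsd3b6 (2.61, a member of a family of similar copies) to Nr5a1 (0.450), which Sertoli cells also express, and the list summed to 185 CPM in Alkbh1-/- and 134 CPM in WT. Spermatid markers were at least 1.5-fold higher in 7 of 14 and lower in 0 (Catsper3 at 2.41, Catsper4 at 2.35). Ratios were above 1 in 11 and below 1 in 3, which were Tnp1 (0.785), Tnp2 (0.907) and Prm1 (0.964). The list summed to 2819 CPM in Alkbh1-/- and 2285 CPM in WT. Spermatogonium markers were at least 1.5-fold higher in 3 of 8 and lower in 0 (Kit at 2.11, Stra8 at 1.71). Ratios were above 1 in 5 and below 1 in 3, among them Uchl1 (0.681, interval 0.589 to 0.788) and Dmrt1 (0.755, 0.629 to 0.906). The list summed to 780 CPM in Alkbh1-/- and 729 CPM in WT, of which Ddx4 alone held 654 and 603 CPM. Myoid markers had 1 of 2 higher (Tagln, 12.2 CPM in Alkbh1-/- and 8.11 CPM in WT), and Actg2 had 47.2 CPM in Alkbh1-/- and 36.3 CPM in WT, with sums of 72.5 CPM in Alkbh1-/- and 50.5 CPM in WT. Blood and endothelial markers summed to 13.7 CPM in Alkbh1-/- and 14.6 CPM in WT, with 1 of 1 over the floor lower (Cdh5 at 0.538). Those under the floor went both ways on few reads. Ptprc (2.75), Cd68 (2.56), Adgre1 (2.36) and Pecam1 (1.75) were higher, while Kdr (0.501) and Csf1r (0.393) were lower. No marker was at 0 in both libraries, and Hbb-bs (Alkbh1-/-) and Hba-a1 (WT) were at 0 in 1 library each. What part these cells have in the ratios of the members was not tested.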

How the data were processed

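The authors deposited whole-number read counts per Ensembl gene for 1 Alkbh1-/- and 1 WT mRNA library. The counting tool, its strand setting and the annotation release were not given in the sources used here. Per the submitters' processing notes, which give no roles, the tools were CASAVA 1.3, Novoalign, TopHat and bedtools, and the build was mm9. If strand was not used, reads of overlapping genes cannot be told apart: of protein-coding genes only Spdya (3 counts in Alkbh1-/-, 2 in WT) overlaps a member, Trmt61b, on GRCm38.p6.

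Symbols were matched to 93.1% of the 21310 identifiers. Unmatched list members, such as Sycp3 and Mars2, were not analysed here. Counts were scaled by TMM (edgeR 4.0.16, R 4.3.3), with no pseudocount. Genes with a mean of 5 CPM over both libraries were counted at 1.5-fold. Ratio intervals were computed with scipy 1.17.1 in Python 3.11.15. They were tried on counts simulated with counting error only, which says nothing about variation between animals or libraries. DESeq2 1.42.0 gave alternative size factors. The small RNA tables were not used. Members and lists were chosen with earlier results of these data known. Named were all members, Alkbh1 and partners, list genes past 1.5-fold (up to 4 a direction), the 2 with most reads per list and the 2 farthest markers per cell type. Other genes named were chosen after their values were seen.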

Additional observations from a re-analysis of the deposited data

How the results depend on the processing

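No paired analysis was possible because each genotype had 1 mRNA library, and for the same reason no library could be left out. The ratios of the 8 members stayed within their counting intervals, and on the same side of 1.5-fold for all but Ftsj1, with DESeq2 size factors, with library totals and with pseudocounts of 1 or 5 CPM, where Nsun2 ranged from 1.03 to 1.08, Trdmt1 from 1.14 to 1.26 and Ftsj1 from 0.633 to 0.828; these ranges include scaling to the summed pachytene markers, an alternative chosen after seeing the data. The median log2 ratio of the members over the floor ranged from -0.028 to 0.052. No member was 1.5-fold higher under any of these alternatives. With a floor of 1 CPM, or of 1 count in each library, Ftsj1 entered and 1 of the 8 members was lower past 1.5-fold. The shares of all genes lower by as much were then 11% and 13.3%. For the other pathway genes, 6 of 84 were higher and 1 lower (all genes 8.09% and 9.07%). A pseudocount of 5 CPM gave 3 and 0 (all genes 4.4% and 6.02%). A threshold of 2-fold gave 1 and 0 (1.96% and 3.37%), and a 25% rise or the matching fall gave 13 and 3 (18% and 18.3%). The floor of 20 CPM left 51 of these genes, 1 higher and 0 lower (5.12% and 6.55%). The floor of 1 CPM left 99, 7 higher and 6 lower (12.8% and 11%). Requiring 1 count in each library left 101, 7 higher and 8 lower (17.4% and 13.3%). With a floor of 20 CPM, 1 of the 8 members, Nsun2, was left. Counting depth limits the members other than Nsun2, whose counts over both libraries together were 65 to 279.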
